A study of Mus musculus with 18 samples.

Results

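A set of 10 genes of the cytosolic and mitochondrial heat shock protein families were followed in mouse germinal centre B cells, taken as the rows of the deposited expression tables that carry the symbols Hspd1, Hspe1, Hspa9, Trap1, Hsp90aa1, Hsp90ab1, Hspa8, Hspa4, Hsph1 and Hsf1. All 10 were found once in each table of 30452 genes, and all 10 passed the filter on low values in both tables. Heat shock proteins are chaperones that bind unfolded or partly folded proteins and, most of them by burning ATP, help them reach or keep their working shape. Hspd1 and its lid Hspe1 form the folding chamber of the mitochondrial matrix, Hspa9 pulls imported proteins into that matrix, and Trap1 is the mitochondrial HSP90. In the cytosol Hspa8 is the constitutive HSP70, Hspa4 and Hsph1 are HSP110 proteins that recharge it with ATP, Hsp90aa1 and Hsp90ab1 are the inducible and constitutive HSP90, and Hsf1 is the transcription factor that drives these genes under proteotoxic stress.

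The libraries came from an experiment on selection of germinal centre B cells, the antigen-activated B cells that mutate their receptors and compete for help from T cells. C57BL/6 hosts were primed with OVA in alum by the intraperitoneal route and received, 2 weeks later, B1-8hi B cells, which carry a receptor for the hapten NP. Of the transferred cells, 15% were Ly75+/+ CD45.1, called DECP because they carry the endocytic receptor DEC205, and 85% were Ly75-/- CD45.1/2, called DECN. Hosts were immunised with NP-OVA in the footpad, and 6 days later all received anti-DEC205-OVA, an antibody that delivers OVA to DEC205 and so raises T cell help to the DECP cells. Light zone cells (B220+ CD38- CD95+ CD83hi CXCR4lo) were sorted from popliteal lymph nodes. One table holds DECP and DECN cells at 12 h, with 3 libraries each. The other holds DECP cells, DECN cells and DECP cells from animals given rapamycin at 2.5 mg/kg together with the antibody, at 24 h, with 4 libraries each. Rapamycin inhibits the growth kinase complex mTORC1. The labels call the replicates biological but do not tie them to animals, so each p-value measures the spread between these libraries. No DECN library from rapamycin-treated animals was analysed here.

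The upstream sequences of the genes with the largest differences at 12 h, chosen for display after those differences were known, are shown first because Hspd1 and Hspe1 share one promoter region and because Hsf1 recognises a short repeat that can be read in it. RefSeq windows on GRCm38.p6, from 250 bases before to 50 bases after each annotated start, were at hand for 5 of the 10 genes (Hspd1, Hspe1, Hsph1, Hspa4 and Trap1; 7 windows). Capitals mark 3 motifs: the 2 phases of the heat shock element, TTCNNGAA and GAANNTTC, which overlap in longer runs, and the E-box CACGTG, bound by Myc and related factors. Each of the 3 reads the same on both strands. The windows are chr1:55087898-55088197 on the plus strand for Hspe1, chr1:55088194-55088493 on the minus strand for the outer start of Hspd1, and chr5:149636287-149636586 on the minus strand for Hsph1.
Hspe1: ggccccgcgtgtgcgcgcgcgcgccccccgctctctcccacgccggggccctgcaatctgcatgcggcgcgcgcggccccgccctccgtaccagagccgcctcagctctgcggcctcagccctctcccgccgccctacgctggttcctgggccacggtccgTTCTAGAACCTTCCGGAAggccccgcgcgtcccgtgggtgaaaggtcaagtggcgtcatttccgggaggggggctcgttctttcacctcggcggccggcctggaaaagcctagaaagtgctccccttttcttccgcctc
Hspd1: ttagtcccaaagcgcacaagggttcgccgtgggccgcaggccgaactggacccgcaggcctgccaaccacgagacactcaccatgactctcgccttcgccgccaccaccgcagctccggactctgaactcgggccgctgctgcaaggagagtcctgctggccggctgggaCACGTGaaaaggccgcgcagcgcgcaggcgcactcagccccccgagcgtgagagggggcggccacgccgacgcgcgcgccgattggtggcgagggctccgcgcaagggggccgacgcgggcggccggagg
Hsph1: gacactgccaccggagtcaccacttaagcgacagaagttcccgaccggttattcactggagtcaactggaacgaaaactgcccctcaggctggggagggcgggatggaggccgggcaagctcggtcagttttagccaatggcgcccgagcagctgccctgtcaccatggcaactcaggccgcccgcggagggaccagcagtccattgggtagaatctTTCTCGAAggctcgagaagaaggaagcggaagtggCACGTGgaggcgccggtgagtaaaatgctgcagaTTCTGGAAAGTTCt
The Hspe1 window held one unbroken run of TTCTAGAA, GAACCTTC and TTCCGGAA that began 89 bases before its start. The Hspd1 window shown held CACGTG 80 bases before the start and neither phase of the heat shock element. A second annotated start of Hspd1 lies 216 bases from that of Hspe1 on the opposite strand, and its window overlapped the Hspe1 window by 285 bases and so held the same run. The Hsph1 window held both phases and CACGTG, in the bases around its start. The windows of Hspa4 and Trap1 held none of the 3 motifs. Of all 32851 windows of this length in the RefSeq table, 15.1% held at least one phase of the heat shock element, 1.32% held both phases, 7.15% held CACGTG and 0.904% held CACGTG together with either phase. A match describes the letters only.

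On GRCm38 the gene models of Hspd1 (chromosome 1, 55077835 to 55088243, minus strand) and Hspe1 (chromosome 1, 55088132 to 55091307, plus strand) overlap by 112 bases. The library kit does not mark strand, so reads from that stretch cannot be told apart.

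The 12 h libraries held 13114 to 13597 genes at 1 TPM or more and the 24 h libraries 11128 to 12244; TPM, a length-corrected share of all transcripts, carries no read depth, so the depth of each library is not known here. Ly75, which encodes DEC205, was at 26 to 39.6 TPM in the DECP and 8.53 to 10.1 TPM in the DECN libraries at 12 h. At 24 h it was at 10.3 to 18.1 TPM in DECP, 2.76 to 6.66 TPM in DECN and 8.66 to 19.0 TPM in rapamycin-treated DECP libraries, so the carriers lay above the non-carriers in both tables. All 10 germinal centre B cell markers had a mean of at least 1 TPM in each group. Their sum was 2300 to 3263 TPM in the DECP and 3190 to 3526 TPM in the DECN libraries at 12 h, and 2849 to 3591, 4663 to 5487 and 4084 to 4751 TPM in DECP, DECN and rapamycin-treated DECP cells at 24 h. The macrophage and dendritic cell list (9 symbols, 10 rows) also moved with the groups and was carried by Apoe. It summed to 652 to 800 against 1230 to 1631 TPM at 12 h. At 24 h the sums were 407 to 615, 1027 to 1129 and 599 to 1189 TPM. Adgre1, C1qa, C1qb and C1qc were at 0 in the untreated and rapamycin-treated DECP libraries at 24 h. The 2 rows of Itgam reached at most 0.611 and 0.716 TPM there. Among DECN libraries at 24 h, Adgre1 reached 4.73, C1qa 0.925, C1qb 2.10 and C1qc 6.05 TPM. Lyz2 was not absent from the rapamycin-treated DECP libraries, with a mean of 4.77 and a maximum of 10.2 TPM. Its other means at 24 h were 0.133 (DECP) and 1.02 TPM (DECN), and at 12 h 8.64 (DECP) and 8.21 TPM (DECN). For DECP, DECN and rapamycin-treated DECP at 24 h, Mertk means were 0.67, 0.70 and 0.89 TPM. Those of Csf1r were 0.25, 0.47 and 0.25 TPM. Plasma cell markers (5 genes, mostly Jchain) summed to 453 to 723, 659 to 747, 832 to 1161, 706 to 908 and 452 to 786 TPM in the order DECP 12 h, DECN 12 h, DECP 24 h, DECN 24 h and rapamycin-treated DECP. Other marker lists moved with the groups as well. T cell markers (7 genes, mostly Lck) summed, in that order, to 173 to 181, 210.0 to 242, 109 to 136, 139 to 233 and 153 to 171 TPM. By this sum the untreated DECP libraries lay below the others in each table. Lck alone was at 58.4 to 97.8, 117 to 167 and 114 to 132 TPM in DECP, DECN and rapamycin-treated DECP cells at 24 h. Cd3d went the other way there, at 34.7 to 54.2, 12.7 to 17.6 and 27.9 to 46.5 TPM. Stromal and endothelial markers (6 symbols, mostly Pecam1) summed to 19.4 to 37.2, 30.9 to 48.3, 7.56 to 16.3, 14.8 to 28.0 and 12.5 to 17.1 TPM, overlapping between the groups of each table. Erythroid markers (4 genes) summed to 7.06 to 37.5, 8.85 to 10.9, 17.6 to 48.4, 51.6 to 94.2 and 15.3 to 61.7 TPM, and at 24 h DECP lay below DECN libraries without overlap. At 24 h the germinal centre B cell sum was lower in DECP than in either other group, and the plasma cell sum was lower with rapamycin than in untreated DECP cells, in each case without overlap. Only Jchain carried the plasma cell difference, with means of 949 TPM in DECP and 562 TPM in rapamycin-treated DECP cells. The other plasma cell means were not lower with rapamycin: Xbp1 at 70.4 and 82.1, Irf4 at 2.06 and 2.70, Sdc1 at 0.172 and 0.227 and Prdm1 at 0.291 and 0.292 TPM. The part of these lists in the results below was not tested. In sorted populations measured in bulk, fewer cells of a type and less RNA per cell cannot be told apart.

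**Figure D1:**
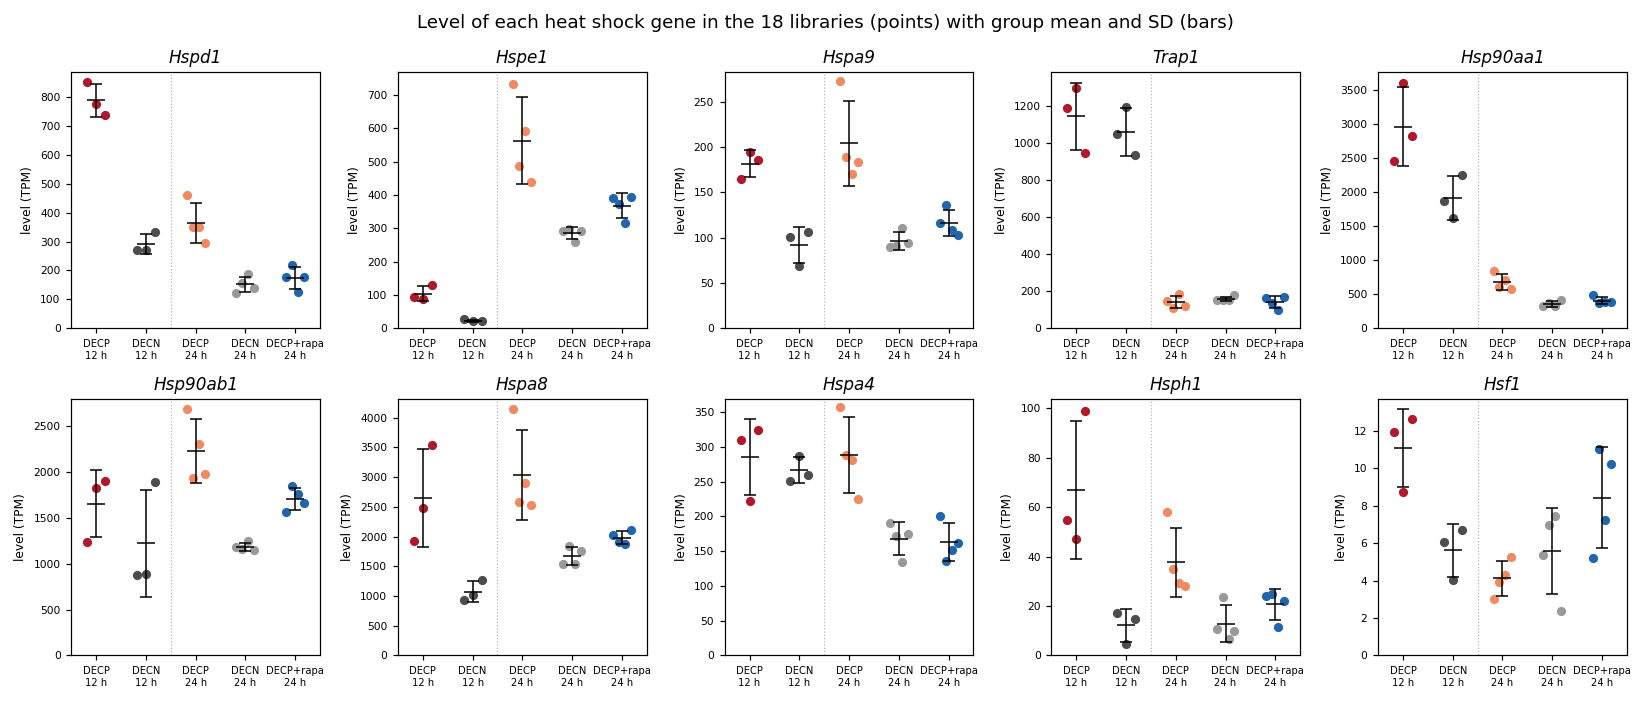
Level of each of the 10 heat shock genes in TPM (vertical axes, each starting at 0) in the 18 libraries, one panel per gene. Points are libraries, bars the group mean and SD, and the dotted line separates the 12 h and 24 h tables, which are separate experiments. In 7 panels the DECP points lie wholly above the DECN points at 12 h, and in 8 panels they do so at 24 h; Trap1 shows no such gap.

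At 12 h, DECP cells carried more RNA for 4 of the 10 genes than DECN cells: Hspd1, Hspe1, Hspa8 and Hsph1. No gene was lower, and the remaining 6 did not pass an adjusted p of 0.05 (limma on log2(TPM + 1), with Benjamini-Hochberg adjustment over 13429 genes). Of all genes tested, 1.84% were called higher and 1.05% lower, 2.89% in both directions. In 7 of the 10 genes every DECP library lay above every DECN library, as it did in 12.6% of all genes tested. The differences in log2(TPM + 1) ran from 0.08 to 2.45 with a median of 0.94, beside a median of -0.05 over all genes. The count was 0 without DECP replicate 1, DECN replicate 1 or DECN replicate 2, where 0, 0 and 1 of all genes passed, and 2 without any one of the other libraries.

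At 24 h the difference between the same populations took in 8 of the 10 genes, all higher in DECP cells, and left out Trap1 and Hsf1. Among all 12783 genes tested, 2.72% were called higher and 1.32% lower, 4.04% together. Every DECP library lay above every DECN library in those 8 genes and in 6.81% of all genes. The differences ran from -0.29 to 1.57 with a median of 0.92, against 0.00 over all genes. Leaving out single libraries gave 6 to 8 of the 10 genes. Over all genes it gave 273 to 542 calls, beside 517 with every library.

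With rapamycin, the DECP cells had less RNA than untreated DECP cells for 5 genes: Hspd1, Hspa9, Hsp90aa1, Hspa8 and Hspa4. Of all genes tested, 1.53% were called lower and 0.657% higher in that comparison, 2.18% together. In 8 genes every rapamycin library lay below every untreated DECP library, which held for 5.33% of all genes. The median difference of the 10 genes was -0.67, beside 0.02 over all genes. The count without single libraries was 1 (rapamycin replicate 4), 2 (DECP replicate 3 or rapamycin replicate 3), 3 (DECP replicate 1, rapamycin replicate 1 or rapamycin replicate 2) or 4 to 6. Calls over all genes fell as well, from 279 to 101 without rapamycin replicate 4. They were 117 without DECP replicate 3 and 140 without rapamycin replicate 3, and ran from 101 to 278 over all single omissions. Against DECN cells, the rapamycin-treated DECP cells were higher in 1 gene, Hsp90ab1, where 0.774% of all genes were called higher and 0.532% lower, 1.31% together. In 3 genes (Hspe1, Hsp90ab1 and Hspa8) every rapamycin library lay above every DECN library, as in 4.62% of all genes, and the median difference was 0.26. The 3 comparisons at 24 h share libraries, so their values are set side by side below and are not independent of each other. In the authors' deposited comparisons, whose method was not given, 5 of the 10 genes were higher in DECP cells at 12 h and 8 at 24 h. With rapamycin 1 was higher than in DECN cells there, and 6 were lower than in untreated DECP cells. Of all genes with an adjusted p, 10.7%, 9.10%, 4.38% and 7.58% passed in those 4 comparisons, both directions together. Those passing at 12 h were Hspd1, Hspe1, Hspa9, Hspa8 (adjusted p = 0.000692) and Hsph1 (0.000140).

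**Figure D2:**
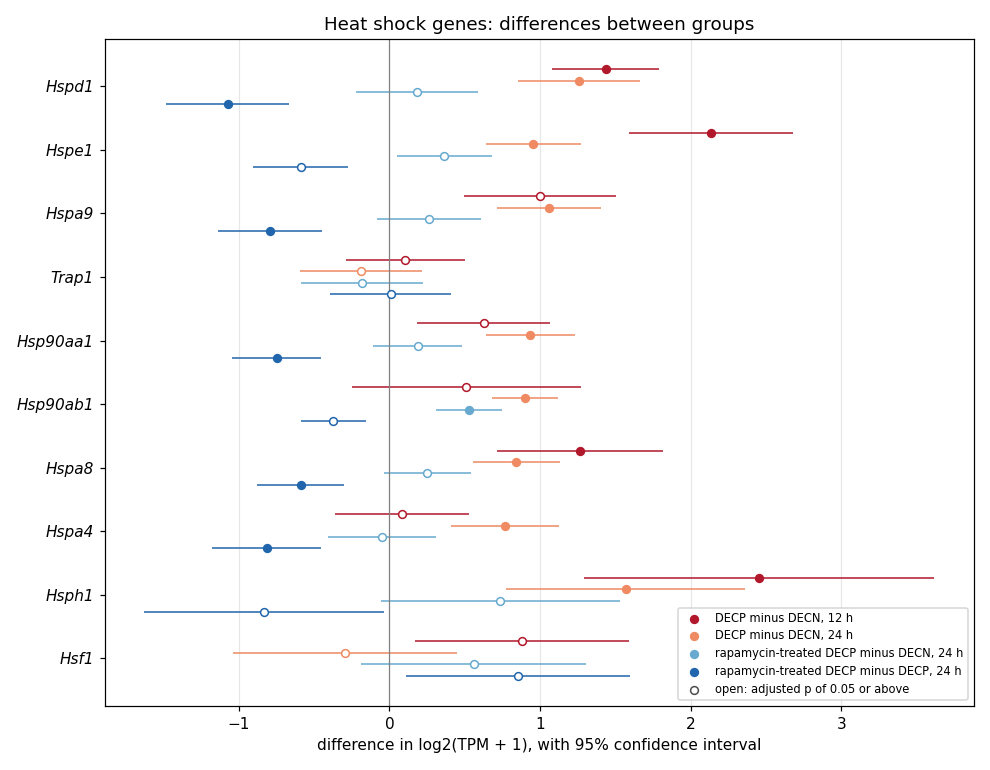
Differences between groups in log2(TPM + 1) (horizontal axis) for each of the 10 genes (vertical axis); bars are 95% confidence intervals and filled points have an adjusted p under 0.05. The orange points (DECP minus DECN at 24 h) lie right of 0 for 8 genes, and the dark blue points (rapamycin-treated DECP minus DECP) lie left of 0 for the same genes, while Trap1 stays near 0.

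The mitochondrial chaperonin pair gave the smallest adjusted p-values of the 10 genes at 12 h. Hspd1 was at 851, 777 and 739 TPM in the DECP and 271, 272 and 333 TPM in the DECN libraries at 12 h. The groups did not overlap, and the means differed 2.70-fold. At 24 h Hspd1 was at 459, 350.2, 351 and 296 TPM in DECP, 123, 157, 187 and 140.0 TPM in DECN and 176, 218, 124 and 176 TPM in rapamycin-treated DECP cells. The untreated DECP libraries stood above all others, and the rapamycin and DECN libraries overlapped. The log2 difference between DECP and DECN cells was 1.44 (SE 0.15, adjusted p = 0.0125) at 12 h and 1.26 (SE 0.19, adjusted p = 0.00289) at 24 h. Rapamycin-treated cells lay -1.07 from untreated DECP cells (SE 0.19, adjusted p = 0.0137) and 0.18 from DECN cells (95% interval -0.22 to 0.59, adjusted p = 0.753). The adjusted p at 12 h was 0.0506 without DECP replicate 1, 0.0748 without DECN replicate 1 and 0.0646 when DECN replicate 2 was omitted, and the calls at 24 h held without any one library.

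Its partner Hspe1 was at 94.7, 88.6 and 128 TPM in the DECP and 26.5, 20.2 and 21.6 TPM in the DECN libraries at 12 h, a 4.56-fold difference of the means. All 3 DECP libraries were far above the DECN libraries. At 24 h Hspe1 was at 734, 488, 592 and 439 TPM in DECP, 291, 298, 259 and 292 TPM in DECN and 392, 372, 315 and 393 TPM in rapamycin-treated DECP cells. Here the rapamycin libraries formed a middle group that overlapped neither of the others. The log2 difference between DECP and DECN cells was 2.13 (SE 0.23, adjusted p = 0.0125) at 12 h and 0.95 (SE 0.15, adjusted p = 0.00329) at 24 h. With rapamycin it was 0.36 from DECN cells (adjusted p = 0.293) and -0.59 from untreated DECP cells (95% interval -0.91 to -0.28, adjusted p = 0.0570), neither past the threshold. The second of these passed without DECP replicate 4 (adjusted p = 0.0363), and in the authors' deposited table it was -0.61 with an adjusted p of 0.0236. The call at 12 h was lost without the same 3 libraries as that of Hspd1, with the same adjusted p-values (0.0506, 0.0748 and 0.0646). Processed copies of Hspe1 make the split of its reads uncertain: the row Hspe1-ps2 reached 14.1 TPM at 12 h and Hspe1-ps5 reached 28.2 TPM at 24 h.

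Hspe1 was the only one of the 10 genes whose DECP minus DECN difference was itself called different between the times, by -1.18 in log2 (24 h minus 12 h, SE 0.25, adjusted p = 0.0271). Of the 11848 genes tested in this way, 0.717% were called lower and 0.135% higher, 0.852% together. The call was lost without any one of 8 of the 18 libraries, with adjusted p-values of 0.0541 to 0.0752 (DECP 12 h replicate 3, DECN 12 h replicates 2 and 3, DECP 24 h replicates 2 and 4, DECN 24 h replicates 1, 2 and 4). Among the other genes this difference ran from -1.17 (SE 0.48, Hsf1) to 0.68 (SE 0.26, Hspa4), with adjusted p-values of 0.292 or more. Time and experiment cannot be told apart, because each time is one table with its own kind of library index.

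Hspa9, the matrix HSP70, was at 165, 194 and 186 TPM in the DECP and 100.2, 68.8 and 107 TPM in the DECN libraries at 12 h. The groups did not overlap, but the log2 difference of 1.00 (SE 0.22) had an adjusted p of 0.0561; in the authors' deposited table the gene passed at 12 h with an adjusted p of 0.00536. By 24 h it was at 273, 189, 171 and 183 TPM in DECP, 89.3, 90.8, 110.2 and 93.8 TPM in DECN and 116, 136, 108 and 103 TPM in rapamycin-treated DECP cells. The untreated DECP libraries were again apart from the rest, with a log2 difference of 1.06 from DECN cells (SE 0.16, adjusted p = 0.00302). Rapamycin-treated cells lay -0.80 from untreated DECP cells (SE 0.16, adjusted p = 0.0234) and 0.26 from DECN cells (adjusted p = 0.528). The call against untreated DECP cells was lost without DECP replicate 1 (adjusted p = 0.0540) or rapamycin replicate 1 (0.0651), 3 (0.0660) or 4 (0.0715).

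Trap1, the HSP90 of the same compartment, did not follow the other mitochondrial genes. It was at 1189.9, 1296 and 946 TPM in the DECP and 1049, 1194 and 933 TPM in the DECN libraries at 12 h, and the groups overlapped. At 24 h it was at 149, 112, 182 and 121 TPM in DECP, 150.4, 154, 151 and 177 TPM in DECN and 164, 134, 101 and 168 TPM in rapamycin-treated DECP cells, with all 3 groups overlapping. The DECP minus DECN differences were 0.11 (95% interval -0.29 to 0.50) at 12 h and -0.19 (-0.59 to 0.22) at 24 h. Rapamycin-treated and untreated DECP cells differed by 0.01 (-0.40 to 0.41), so a change of the size seen in Hspd1 lay outside the interval in each comparison in which Hspd1 was called. Its level at 24 h was well below that at 12 h in each library, whereas that of Hspe1 was above it. Time and experiment cannot be told apart here.

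HSP90 holds many kinases and receptors in an activatable state, and its cytosolic genes were among the most abundant of the set. Hsp90ab1, the constitutive form, was at 1236, 1825 and 1903 TPM in the DECP and 879.5, 889.5 and 1892 TPM in the DECN libraries at 12 h. One DECN library reached the DECP level, the groups overlapped, and the difference of 0.51 (SE 0.33) had an adjusted p of 0.445. By 24 h it was at 2689, 1937, 2308 and 1975 TPM in DECP, 1184, 1155, 1241 and 1149.5 TPM in DECN and 1566, 1841, 1757 and 1666 TPM in rapamycin-treated DECP cells. The 3 groups did not overlap, with the rapamycin libraries between the others. The log2 difference between DECP and DECN cells was 0.90 (SE 0.10, adjusted p = 0.000949), the smallest adjusted p of the 10 genes at that time, and it held without any one library. Rapamycin-treated cells lay 0.53 above DECN cells (SE 0.10, adjusted p = 0.0278) and -0.37 from untreated DECP cells (95% interval -0.59 to -0.16, adjusted p = 0.0822). The call against DECN cells was lost without any one of the 4 DECN or the 4 rapamycin libraries (adjusted p between 0.0513 and 0.0835).

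Hsp90aa1, the inducible HSP90, was at 2458, 3599 and 2817 TPM in the DECP and 1870.2, 1616 and 2246 TPM in the DECN libraries at 12 h. The groups did not overlap, and the difference of 0.62 (SE 0.19) had an adjusted p of 0.123. At 24 h it was at 837, 607, 703 and 579.7 TPM in DECP, 323, 363, 323 and 408 TPM in DECN and 485, 364, 380.2 and 386 TPM in rapamycin-treated DECP cells. All DECP libraries were above the others, and the rapamycin and DECN libraries overlapped. The difference between DECP and DECN cells was 0.93 (SE 0.14, adjusted p = 0.00269). With rapamycin Hsp90aa1 lay -0.75 from untreated DECP cells (SE 0.14, adjusted p = 0.0173) and 0.19 from DECN cells (95% interval -0.11 to 0.48, adjusted p = 0.622). The first of these was lost without DECP replicate 3 (adjusted p = 0.0520) or rapamycin replicate 4 (0.0530).

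Hspa8, which binds nascent and unfolded chains across the cytosol, was at 1923, 2473 and 3542 TPM in the DECP and 937, 1024 and 1264 TPM in the DECN libraries at 12 h. DECP libraries were all higher, spread widely, and differed from DECN cells by 1.26 in log2 (SE 0.24, adjusted p = 0.0412). By 24 h it was at 4148, 2588, 2905 and 2526 TPM in DECP, 1541, 1836, 1535 and 1756 TPM in DECN and 2022, 1916, 1873 and 2116 TPM in rapamycin-treated DECP cells. No group overlapped another, and rapamycin lay in the middle. DECP cells were 0.84 above DECN cells (SE 0.13, adjusted p = 0.00386), and rapamycin-treated cells lay -0.59 from untreated DECP cells (SE 0.13, adjusted p = 0.0385) and 0.25 from DECN cells (adjusted p = 0.446). At 12 h the call was lost whichever of the 6 libraries was left out (adjusted p between 0.0587 and 0.144). That with rapamycin was lost without DECP replicate 3, without DECN replicate 1, 2 or 4, or without any one rapamycin library (adjusted p between 0.0516 and 0.105).

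The HSP110 genes, whose products exchange the nucleotide of HSP70, differed from each other at 12 h. Hspa4 was at 309.6, 222 and 324 TPM in the DECP and 251, 287 and 259 TPM in the DECN libraries. The groups overlapped, with a difference of 0.08 (95% interval -0.36 to 0.53). At 24 h Hspa4 was at 357, 288, 281 and 225 TPM in DECP, 190.4, 172, 134 and 175 TPM in DECN and 201, 136, 152 and 161 TPM in rapamycin-treated DECP cells. Untreated DECP libraries were above all others, by 0.77 over DECN cells (SE 0.17, adjusted p = 0.0219), and the rapamycin libraries lay -0.81 from them (SE 0.17, adjusted p = 0.0249) and -0.05 from DECN cells (95% interval -0.41 to 0.31). The call against DECN cells was lost without DECP replicate 1 (adjusted p = 0.0727), 2 (0.0531) or 3 (0.0591) or DECN replicate 2 (0.0537) or 3 (0.0623). The call against untreated DECP cells was lost without DECP replicate 1, 2 or 3 or rapamycin replicate 2, 3 or 4, with adjusted p-values from 0.0600 to 0.0728.

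Hsph1, the scarcest of the chaperones, was at 54.7, 47.2 and 98.9 TPM in the DECP and 17.2, 4.69 and 14.8 TPM in the DECN libraries at 12 h. The groups were far apart, with a 5.47-fold difference of means and a log2 difference of 2.45 (SE 0.50, adjusted p = 0.0498). At 24 h it was at 58.0, 35.0, 29.5 and 28.3 TPM in DECP, 10.6, 23.8, 6.71 and 10.1 TPM in DECN and 24.1, 24.9, 11.5 and 22.0 TPM in rapamycin-treated DECP cells. DECP libraries lay above the others, by 1.57 over DECN cells (SE 0.37, adjusted p = 0.0318). Rapamycin-treated cells lay 0.73 from DECN cells (adjusted p = 0.421) and -0.83 from untreated DECP cells (95% interval -1.63 to -0.04, adjusted p = 0.326). The call at 12 h was lost whichever library was left out (adjusted p between 0.0926 and 0.126). The call at 24 h was lost without DECP replicate 1, 2 or 3 or DECN replicate 1, 3 or 4 (adjusted p between 0.0595 and 0.103).

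Hsf1 itself was low in each library and was called in no comparison. It was at 11.9, 8.73 and 12.6 TPM in the DECP and 6.09, 4.05 and 6.72 TPM in the DECN libraries at 12 h, where the groups did not overlap but the difference of 0.88 (SE 0.30) had an adjusted p of 0.165. By 24 h it was at 3.0, 3.95, 4.28 and 5.25 TPM in DECP, 5.39, 7.0, 7.48 and 2.40 TPM in DECN and 5.21, 11, 7.23 and 10.2 TPM in rapamycin-treated DECP cells. All 3 groups overlapped. The DECP minus DECN difference was -0.29 (95% interval -1.04 to 0.45), and rapamycin-treated cells lay 0.85 from untreated DECP cells (95% interval 0.11 to 1.60, adjusted p = 0.270), opposite in sign to the 8 chaperones other than Trap1. The activity of this factor is set largely after translation, by its release from chaperones and its binding to DNA, and was not measured.

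The 24 h libraries carry a second index with 2 libraries of each group per index. Within each index the DECP minus DECN difference kept its sign in 10 of 10 genes. Hsph1 differed most between the indices, at 0.82 and 2.32, followed by Hspa4 at 0.47 and 1.06. The rapamycin-treated minus untreated DECP difference kept its sign in 9 of 10 genes, with Trap1 at -0.19 and 0.20. Hspd1 lay at -1.12 and -1.03.

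Summed over the 10 genes, the level was 8292, 10531 and 10695 TPM in the DECP and 5408, 5381 and 7078 TPM in the DECN libraries at 12 h. It was 9707, 6599, 7528 and 6378 TPM in DECP, 3907, 4258, 3954 and 4204 TPM in DECN and 5151, 5154, 4829 and 5202 TPM in rapamycin-treated DECP cells at 24 h. The groups did not overlap in this total in either table, and rapamycin-treated cells lay between the other groups. The cytosolic chaperones at 24 h summed to 5334 to 8090 TPM in DECP, 3240 to 3551 in DECN and 4174 to 4352 in rapamycin-treated DECP cells. Hspd1, Hspe1, Hspa9 and Trap1 together summed to 1039 to 1614, 654 to 707 and 648 to 860 TPM. In this mitochondrial sum the rapamycin and DECN libraries overlapped. The 10 genes thus made up 0.993% (SD 0.136, n = 3) of all TPM in DECP and 0.603% (SD 0.0985, n = 3) in DECN cells at 12 h. At 24 h they made up 0.767% (SD 0.155, n = 4), 0.414% (SD 0.0179, n = 4) and 0.517% (SD 0.0171, n = 4) in DECP, DECN and rapamycin-treated DECP cells. The sum is a description, with no test.

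TPM are per transcript length, so levels can be ordered between genes. In DECN cells at 24 h, Hspa8 took the first place, followed by Hsp90ab1, Hsp90aa1 and Hspe1 with no overlap between neighbours. Hspa4, Trap1 and Hspd1 then overlapped in turn, Hspa9 lay below Hspd1, and Hsph1 and Hsf1 ranked last and overlapped each other. In DECP cells at 24 h Trap1 took the eighth place, and among the 8 highest genes only Hsp90ab1 did not overlap the next in the order, Hsp90aa1. Trap1 lay above Hsph1 and Hsph1 above Hsf1, both without overlap. In both groups at 12 h Hsp90aa1 took the first place and Trap1 the fourth, and Hspe1 took the eighth place, above Hsph1 and Hsf1.

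**Figure D3:**
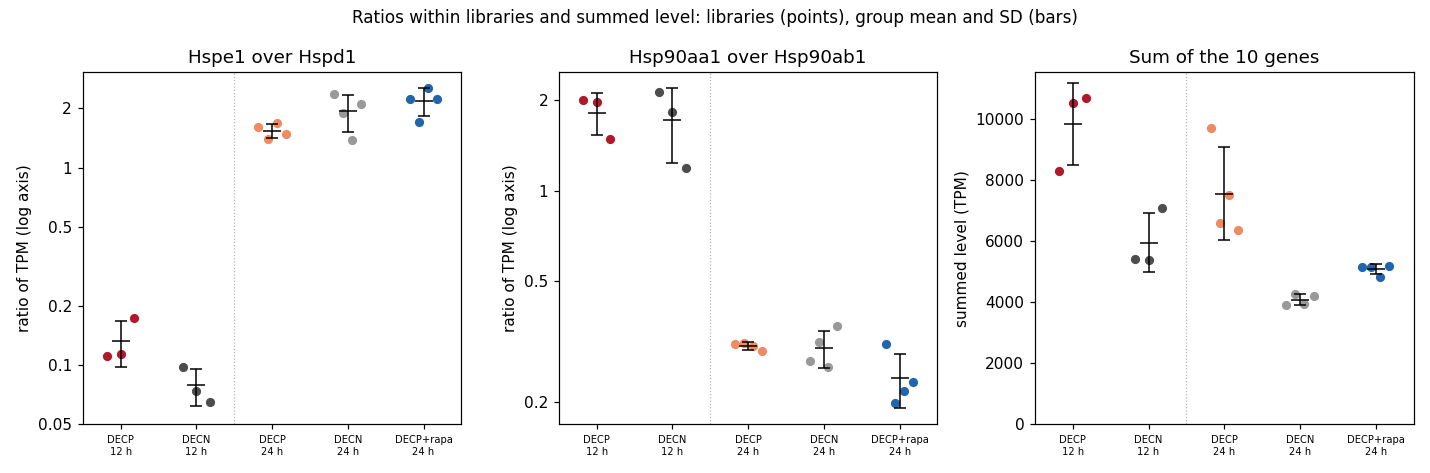
Ratio of Hspe1 to Hspd1 TPM and of Hsp90aa1 to Hsp90ab1 TPM (log vertical axes) and summed TPM of the 10 genes (linear axis from 0) in each library. Points are libraries, bars the mean and SD, and the dotted line separates the 12 h and 24 h tables, which are separate experiments. The Hspe1 to Hspd1 ratio separates DECP from DECN cells at 12 h only, and the sum separates the groups in both tables.

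Ratios of partner genes within a library do not depend on how that library was scaled. Hspe1 over Hspd1 was 0.111, 0.114 and 0.173 in DECP and 0.0976, 0.0743 and 0.0648 in DECN cells at 12 h, without overlap. At 24 h it was 1.39 to 1.69 in DECP, 1.39 to 2.36 in DECN and 1.71 to 2.54 in rapamycin-treated DECP cells. The rapamycin libraries lay above the untreated DECP libraries in this ratio, and DECN overlapped both. Hsp90aa1 over Hsp90ab1 was 1.48 to 1.99 in DECP and 1.19 to 2.13 in DECN cells at 12 h, and 0.293 to 0.313 in DECP, 0.260 to 0.355 in DECN and 0.198 to 0.310 in rapamycin-treated DECP cells at 24 h, overlapping throughout. In every 24 h library Hspe1 over Hspd1 was higher, and Hsp90aa1 over Hsp90ab1 lower, than in any 12 h library, and the experiment cannot be told apart from the time.

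Some helpers of HSP90 rose in DECP cells. Of 20 co-chaperone genes listed, all 20 were tested, and 5 rose at 12 h and 6 at 24 h with none lower in either. Over all genes tested, 1.84% were called higher at 12 h and 2.72% at 24 h. By unadjusted p under 0.05, 7 of the 20 were higher and 1 lower at 12 h, and 9 were higher and 1 lower at 24 h. The lower genes were Tomm34 at 12 h (-0.76, adjusted p = 0.121) and Cdc37l1 at 24 h. Over all genes, 2673 of 13429 at 12 h and 2261 of 12783 at 24 h passed that mark, both directions together. Ptges3, the p23 protein that closes the HSP90 clamp, was at 1678 ± 234 TPM in the DECP and 706 ± 33.3 TPM in the DECN libraries (SD, n = 3) at 12 h. Its difference was 1.24 (SE 0.14, adjusted p = 0.0143) at 12 h and 1.39 (SE 0.12, adjusted p = 0.000383) at 24 h. Ahsa1, the activator of the HSP90 ATPase, rose by 1.25 (SE 0.23) and 0.84 (SE 0.17). The prolyl isomerases Fkbp4 (1.61 and 0.90) and Ppid (1.47 and 1.08) and the ATPase Ruvbl1 (1.35 and 0.85) were the others called at 12 h, and each was also called at 24 h. Cdc37l1, a relative of the kinase co-chaperone Cdc37, had the largest difference of the list at 24 h in either direction. It was at 3.97 ± 3.83 TPM in the DECP and 11.3 ± 2.08 TPM in the DECN libraries (SD, n = 4) with no overlap, and its difference of -1.75 (SE 0.58) had an adjusted p of 0.120. The list's median difference was 0.36 at 12 h and 0.56 at 24 h, beside -0.05 and 0.00 over all genes. The number called higher at 12 h was 0 with no filter on low values, 1 with no intensity trend, and 0 or 1 without any one library. At 24 h it was 1 with no intensity trend and 2 with quantile scaling or no filter. Among single libraries, it was 1 without DECP replicate 1 or 3, 2 without DECN replicate 1 or 3, and 3 without DECP replicate 2 or DECN replicate 4.

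With rapamycin, 2 of the 20 were lower than in untreated DECP cells, Ptges3 (-0.86, SE 0.12, adjusted p = 0.00407) and Ahsa1 (-0.73, SE 0.17, adjusted p = 0.0481), and none was higher (none at an unadjusted p under 0.05). Over all genes tested, 1.53% were called lower and 0.657% higher in that comparison. At an unadjusted p under 0.05, 9 of the 20 were lower, where 1776 of all 12783 genes passed, both directions together. Ptges3 kept its call without any one library, and Ahsa1 kept it only without DECP replicate 4 or without DECN replicate 1. Against DECN cells none of the 20 was called, beside 0.774% of all genes higher and 0.532% lower. At an unadjusted p under 0.05, 2 were higher and 1 lower, where 1702 of all 12783 genes passed, both directions together. Ptges3 was at 0.53 (adjusted p = 0.0532). The number lower with rapamycin was 0 with no intensity trend and 1 with a pseudocount of 0.1, no filter, quantile scaling, TPM rescaled without ribosomal protein, immunoglobulin and mitochondrially encoded genes, the second index as a term or only the groups compared.

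**Figure D4:**
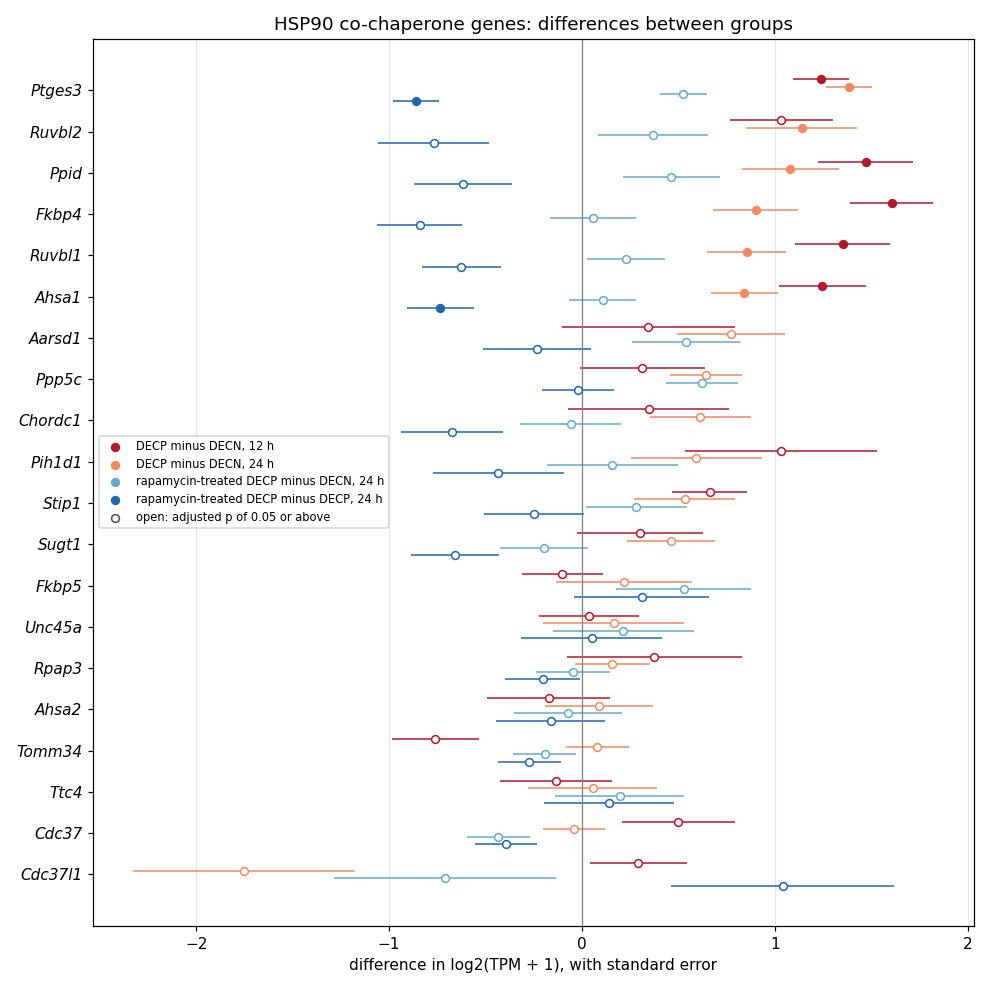
Differences in log2(TPM + 1) (horizontal axis) with standard errors for the 20 HSP90 co-chaperone genes (vertical axis, ordered by the DECP minus DECN difference at 24 h); filled points have an adjusted p under 0.05. Ptges3 at the top is filled in 3 of the 4 comparisons shown, and Cdc37l1 at the bottom lies at -1.75 in the 24 h difference, with an open point.

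Calls among helpers of HSP70 and of the mitochondrial chaperones are set beside the shares of all genes tested. Between DECP and DECN cells, 1.84% of all genes were called higher and 1.05% lower at 12 h. At 24 h these shares were 2.72% and 1.32%. With rapamycin, 1.53% were called lower than in untreated DECP cells and 0.657% higher. Of the cytosolic HSP70 co-chaperones and relatives, 18 rows of 20 listed genes were tested. None was called between DECP and DECN cells at either time. By unadjusted p under 0.05, 3 were higher and 1 lower at each time. Over all genes, 2673 of 13429 at 12 h and 2261 of 12783 at 24 h passed that mark, both directions together. With rapamycin, 2 were lower than in untreated DECP cells, the J-domain proteins Dnaja1 (-0.68, SE 0.12, adjusted p = 0.0173) and Dnaja2 (-0.71, SE 0.14, adjusted p = 0.0217). In the list of 16 mitochondrial co-chaperones and proteases, 1 gene rose at 12 h, Dnajc15 of the import motor (1.72, SE 0.29, adjusted p = 0.0319), and none was called at 24 h, with 4 higher and 1 lower at an unadjusted p under 0.05. With rapamycin, Dnajc15 (-1.03, SE 0.19, adjusted p = 0.0197) and its relative Dnajc19 (-0.77, SE 0.17, adjusted p = 0.0309) were lower than in untreated DECP cells. Settings and single libraries decided part of these calls. With no intensity trend, the number lower with rapamycin was 0 in both lists. It was 0 cytosolic and 1 mitochondrial with quantile scaling, 1 in each with that rescaling of TPM or only the groups compared, and 1 mitochondrial with no filter. At 24 h, 1 cytosolic and 1 mitochondrial helper were higher in DECP cells at a filter of 5 TPM, and 1 mitochondrial helper with median centring. At 12 h the mitochondrial call and that of Hspa5, described next, were lost with no filter, and the latter also with no intensity trend. The number of cytosolic helpers lower with rapamycin was 0 without DECP replicate 1 and 1 without DECP replicate 2 or 3 or rapamycin replicate 1 or 4. That of mitochondrial helpers was 0 without rapamycin replicate 1, 3 or 4 and 1 without DECP replicate 1, 2 or 3 or rapamycin replicate 2. Dnajc15 at 12 h lost its call whichever of the 6 libraries was left out. The endoplasmic reticulum relatives Hspa5, Hsp90b1 and Hyou1 gave 1 call: Hspa5, the HSP70 of that compartment, rose by 0.95 at 12 h (SE 0.18, adjusted p = 0.0407), and this too was lost whichever library was left out.

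Levels differed widely within the list of stress-inducible HSP70 and small heat shock proteins, which also holds more distant relatives. Hspa1a, Hspa1b and Hspb1, named here after their values were seen, peaked at 0.120, 0.201 and 0.183 TPM over the 12 h libraries and at 1.24, 0.386 and 0 TPM over the 24 h libraries, and none passed the filter on low values. Hspa12b, a distant HSP70 relative, peaked at 113 and 40.9 TPM and Hspb11 at 103 and 58.0 TPM at the 2 times, and Dnajb1, the heat-inducible HSP40, had group means of 24.9 to 43.2 TPM and was called in no comparison. These 3 were also named after their values were seen. Of the 16 genes listed as stress-inducible HSP70 and small heat shock proteins, 7 were tested at 12 h and 6 at 24 h. None was called in any comparison, beside 0.852% to 4.04% of all genes, both directions together. By unadjusted p under 0.05, 2 were lower at 12 h, where 2673 of all 13429 genes passed in both directions. The list's medians were -0.39 at 12 h and -0.11 at 24 h, beside -0.05 and 0.00 over all genes. The smallest p at 12 h belonged to Hspb11, a small heat shock protein relative that works in cilia, at -0.56 (SE 0.17, adjusted p = 0.133). Of the other heat shock factors and the HSF binding protein, 3 of 5 were tested and none was called; Hsf2 was at 0.67 (adjusted p = 0.244) at 12 h and 0.81 (adjusted p = 0.103) at 24 h.

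Genes with the most similar differences were sought over DECP minus DECN at 12 h, DECP minus DECN at 24 h and rapamycin-treated DECP minus DECN, among 7337 genes at a mean of 5 TPM or more in both tables. Nearest to Hspd1 were Hars (distance 0.161 in log2 units), Ppat (0.289), Pgam1 (0.301), Cacybp (0.306) and Gcsh (0.317), beside a median distance of 1.94 over all of these genes. Hars, a histidine tRNA synthetase, stood at 1.39, 1.13 and 0.27 in the 3 differences. Nearest to Hsp90ab1, whose rapamycin difference was larger, were Ybey (0.0723), Dhodh (0.0924), Khsrp (0.129), Elavl1 (0.129) and Pdk1 (0.151), beside a median distance of 1.26. Dhodh, an enzyme of pyrimidine synthesis, stood at 0.49, 0.91 and 0.62. The last 2 of the 3 differences share the DECN libraries.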

How the data were processed

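RNA of sorted cells was sequenced from Nextera XT libraries, and transcripts were quantified with kallisto 0.43.0, with GRCm38 named as the build, per the submitters' processing notes. The authors deposited one table per time with a score per gene and library, TPM plus 1; the added 1 was subtracted here. Single cells were not resolved, and TPM holds no count, so depth and counting error are not known. Sheets of group comparisons deposited by the authors give a signal (mean normalised value of each group), a log2 fold change and its error, a test score, and a p-value with its adjusted form; their method was not given in the sources used here.

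Genes at 1 TPM or more in at least 3 libraries (12 h) or 4 libraries (24 h) were tested on log2(TPM + 1), which understates differences of low genes, with limma 3.58.1 in R 4.3.3 (intensity trend, empirical Bayes, two-sided). Benjamini-Hochberg adjustment ran over all genes tested, and the threshold was 0.05. All 12 libraries entered the fits at 24 h. A run on simulated data had a low bar for recovered changes and none for false calls, so no error rate is drawn from it. All 10 members are named, with up to 4 genes of smallest p per list and comparison and the 5 nearest genes of 2 members. Members and lists were chosen with earlier results of these data known. Of 30452 gene identifiers, 30123 were found in GENCODE M21. Alternatives were other pseudocounts, filters and scalings, no intensity trend, a replicate block, a term for the second index, fits on 2 groups alone, and omission of each library. Promoter windows were read from a RefSeq table (GRCm38.p6), and figures were drawn with matplotlib.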

Additional observations from a re-analysis of the deposited data

Results flagged for a closer look

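Within groups of 4 libraries, 39 sets of values were examined for a single library far from the rest, and 2 stood out, where chance alone flags about 1 in 20. Trap1 was at 177 TPM in DECN replicate 4 at 24 h, with the other DECN libraries between 150.4 and 154 TPM. The summed level of the 10 genes was 4829 TPM in rapamycin-treated DECP replicate 3, with the others between 5151 and 5202 TPM.

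The DECP minus DECN difference of Hspe1 was itself different between the times, by -1.18 in log2 (24 h minus 12 h, limma, adjusted p = 0.0271), the one such difference among the 10 genes. All 3 DECP libraries at 12 h and all 4 at 24 h lay above the DECN libraries. Time and experiment cannot be told apart.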

How the results depend on the processing

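Over all alternatives the 10 genes gave 1110 values in the 5 comparisons. Of these, 979 kept their direction and their side of the threshold, 112 lost the call and 4 gained it. Another 15, all of uncalled differences near 0, changed sign without a call: Hspa4 at 12 h (1) and for rapamycin-treated DECP minus DECN (4), Trap1 for rapamycin-treated minus untreated DECP (5, from -0.10 to 0.22) and Hspa9 for the difference between times (5). At 24 h the DECP minus DECN calls of Hspd1, Hspe1, Hspa9, Hsp90aa1 and Hsp90ab1 held in all 23 alternatives. The number of the 10 genes called between DECP and DECN cells at 12 h (4) was 2 with no filter on low values or no intensity trend, and 0 to 2 without single libraries. At 24 h (8) it was 5 with no intensity trend and 6 to 8 without single libraries. For rapamycin-treated DECP against DECN cells (1) it was 0 with no filter, quantile scaling, median centring or no intensity trend, and 0 to 1 without single libraries. For rapamycin-treated against untreated DECP cells (5) it was 3 with no filter, 2 with quantile scaling or with only the groups compared, 1 when TPM were rescaled without ribosomal protein, immunoglobulin and mitochondrially encoded genes, 0 with no intensity trend, and 1 to 6 without single libraries. For the difference between times (1) it was 0 with median centring, that rescaling or no intensity trend, and 0 to 1 without single libraries. The cause of these changes was not tested. That rescaling moved the median of all genes in rapamycin-treated DECP minus DECN from 0.02 to 0.12, and the calls over all genes from 167 to 116. In rapamycin-treated minus untreated DECP the median moved from 0.02 to 0.10, and the calls over all genes from 279 to 116.

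The replicate numbers were not taken as pairs: same-numbered libraries of different groups correlated at -0.08 to 0.10 in their deviations from the group means. DECP and DECN cells were transferred into the same hosts, so libraries of both may share animals. Which libraries do so is not stated, and a check of equal numbers cannot show it. With the replicate block the counts were 0 at 12 h, 8 at 24 h, 0 for rapamycin-treated DECP against DECN, 3 for rapamycin-treated against untreated DECP cells and 0 for the difference between times. With it the HSP90 co-chaperones called were 0 at 12 h, 1 at 24 h and 1 for rapamycin-treated against untreated DECP cells, and the calls among the helpers of HSP70, the mitochondrial helpers and Hspa5 were 0. Over all genes, calls at 12 h fell from 388 to 0 with the block, ran from 0 to 91 without single libraries, and were 595 at a filter of 5 TPM, so with 3 libraries per group the calls at 12 h turn on the settings. The 24 h DECP minus DECN total ran from 182 (no intensity trend) to 624 (a filter of 5 TPM) around 517. The total for rapamycin-treated DECP minus DECN was 22 with no intensity trend against 167, and for rapamycin-treated minus untreated DECP cells it was 0 against 279. Without single libraries, the 24 h DECP minus DECN total was 273 to 542. That for rapamycin-treated DECP minus DECN was 32 to 168, and that for rapamycin-treated minus untreated DECP cells 101 to 278. Depth is not known from TPM. In the 24 h fits the 2 scarcest genes, Hsph1 and Hsf1, had the widest intervals.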
